A study of Mus musculus with 32 samples.

Results

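The AP-1 and immediate early genes were described across 32 mouse mesothelioma tumors. They were chosen by gene symbol from a list of 10, namely Fos, Fosb, Fosl1, Fosl2, Jun, Junb, Jund, Egr1, Atf3 and Ier2. A row was found for 8 of these 10 symbols among the 39676 genes of the count table, and Fosl1 and Ier2 were not analysed here. Whole tumors were taken from untreated young adult female mice on day 10 after inoculation, with 8 tumors in each of 4 groups and 1 mouse per tumor. AB1 cells (500000 per mouse) were grown in BALB/c mice and AE17 cells (1000000 per mouse) in C57BL/6 mice, either in the pleural cavity (intrapleural, IPL) or under the skin of the flank (subcutaneous, SC). AB1 and AE17 are each a single murine mesothelioma cell line on its own mouse strain, so line and strain cannot be told apart. By the methods of the study, IPL tumors were first weighed with the lungs, which were removed before storage for RNA. No such step is described for SC tumors, and no handling times are given. Handling at harvest may therefore differ with the site and cannot be told apart from it.

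AP-1 is a transcription factor made of a pair of proteins with basic leucine zippers. Jun proteins pair with each other or with Fos proteins, Fos proteins need a Jun partner, and the pair binds short palindromic sites in DNA. Many of these genes are immediate early genes, whose transcripts rise within minutes of a growth factor, cytokine or stress signal through MAP kinases and existing factors such as SRF, and then fall again. In tumors AP-1 is known for its link to proliferation, invasion and the remodelling of matrix, and asbestos fibers are known to induce Fos and Jun in mesothelial cells.

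Total counts ranged from 15432258 to 20649645 per tumor, with a median of 17230191. Levels are given as CPM, which are counts per 1000000 after TMM scaling of the 32 libraries. Column headers placed the 8 AB1 IPL tumors in lane 3 of the sequencer and the 8 AE17 SC tumors in lane 1. Of the AB1 SC tumors 2 were in lane 3 and 6 in lane 2, and of the AE17 IPL tumors 3 were in lane 1 and 5 in lane 2. AB1 and AE17 tumors of the same site therefore never shared a lane. Of the 7 mesothelial and mesothelioma genes read, Pdpn, Cdh2 and Bap1, none of them particular to mesothelial cells, had group medians between 57.4 and 170.0 CPM. Wt1 had group medians between 0.0898 and 2.10 CPM, with 0 counts in at least 1 tumor of each AE17 group, and Krt19 between 0.0543 and 4.46 CPM. The mesothelial markers Upk3b and Lrrn4 reached at most 1 and 3 counts in any SC tumor, and their medians were 0.135 and 0.107 CPM in AB1 IPL and 1.86 and 1.94 CPM in AE17 IPL tumors. The highest tumor had 590 and 449 counts in AB1 IPL and 114 and 89 counts in AE17 IPL tumors. All 8 skeletal muscle markers tested were higher in AB1 IPL than AB1 SC tumors and all 8 T cell markers were lower, whereas none of either list passed the test between the AE17 sites (edgeR quasi-likelihood test, adjusted p under 0.05).

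RefSeq start sites (GRCm38.p6) were matched for 7 of the 8 genes. Those of Fosl2 and Atf3 lay inside the gene as annotated, and that of Jund lay before its annotated start. Other start sites of these genes were not searched. The 250 bases before the start are shown for Fos, Jun and Atf3, since these are 3 of the 4 genes whose site difference differed between the models. Capitals mark every match, on either strand, to the motifs searched, and positions count back from -1 just before the start.
Fos (chr12:85473640-85473889, plus strand): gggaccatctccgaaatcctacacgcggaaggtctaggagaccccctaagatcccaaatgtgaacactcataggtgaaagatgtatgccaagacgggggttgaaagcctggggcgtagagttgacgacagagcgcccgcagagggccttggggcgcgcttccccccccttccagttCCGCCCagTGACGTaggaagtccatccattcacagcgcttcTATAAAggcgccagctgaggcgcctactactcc
Jun (chr4:95052223-95052472, minus strand): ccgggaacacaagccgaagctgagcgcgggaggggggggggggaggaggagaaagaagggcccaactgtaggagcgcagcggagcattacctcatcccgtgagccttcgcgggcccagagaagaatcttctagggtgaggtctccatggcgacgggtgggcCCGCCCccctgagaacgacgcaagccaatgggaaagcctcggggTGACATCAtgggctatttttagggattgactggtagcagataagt
Atf3 (chr1:191183334-191183583, minus strand): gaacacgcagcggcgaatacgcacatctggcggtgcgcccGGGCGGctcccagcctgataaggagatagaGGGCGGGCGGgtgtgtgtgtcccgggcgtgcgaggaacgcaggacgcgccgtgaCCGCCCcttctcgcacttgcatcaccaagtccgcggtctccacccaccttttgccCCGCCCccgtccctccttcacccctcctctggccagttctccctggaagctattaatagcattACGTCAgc

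In all, 8 motifs were searched in the windows of the 7 genes. TGACGT, the core of the cyclic AMP response element, was found at -66 to -61 in Fos and at -8 to -3 on the opposite strand in Atf3, and 6.47% of 32851 RefSeq windows of the same length held it. TGACATCA, a variant of the AP-1 and cyclic AMP response sites, was found at -45 to -38 in Jun and in 2.93% of windows. TATAAA was found at -33 to -28 in Fos and in 12.4% of windows. GGGCGG was found at least once in Fos, Fosb, Fosl2, Jun and Atf3 and in 32.7% of windows. No match was found in the 7 genes for the AP-1 site TGACTCA, which 4.46% of windows held. The same was true of the full element TGACGTCA, which contains TGACGT and was in 1.55% of windows. It was also true of TATATA, in 5.25%, and of the CArG box that SRF binds, in 1.47% of windows. Sequence outside the window, including that farther upstream, was not searched. The lack of a match therefore does not show that a gene has no such site. Egr1, whose start site was not matched, was not searched at all. The matches found describe the letters of the window and are not evidence of binding.

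Per length, the Jun family transcripts had the highest group means of the 8 in every group. Group means of CPM per kilobase of exon lay between 42.8 and 57.7 for Jun, 49.2 and 75.8 for Junb, and 31.4 and 69.8 for Jund. On the same scale they lay between 14.3 and 25.2 for Fosl2, 13.7 and 26.8 for Egr1, 8.40 and 13.1 for Fos, 5.37 and 20.5 for Atf3, and 0.979 and 1.79 for Fosb. Fosb, the least abundant per length, was still read at 75 counts or more in every tumor.

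Among the Fos proteins, Fos is the founding partner of Jun and the classic transient early gene. Its level ranged from 15.3 to 45.3 CPM in AB1 IPL tumors (median 31.4), from 10.3 to 34.0 in AB1 SC (median 23.1), from 16.1 to 22.5 in AE17 IPL (median 20.3) and, among AE17 SC tumors, between 17.9 and 27.3 CPM (median 23.9). The 4 ranges overlapped, and the AE17 groups were the narrower. Fosb, a close relative of Fos, ranged from 4.58 to 13 CPM in AB1 IPL (median 8.41), from 6.98 to 20.3 in AB1 SC (median 8.55), from 5.58 to 8.87 in AE17 IPL (median 6.38) and, among AE17 SC tumors, between 4.46 and 9.48 CPM (median 5.84). The 2 highest values, 20.3 and 19.8 CPM, were both in AB1 SC tumors. Fosl2 encodes Fra-2, a Fos protein that lacks the strong activation domain of Fos, and it ranged from 190.0 to 343 CPM in AB1 IPL (median 230.0), from 157 to 202 in AB1 SC (median 174), from 105 to 174 in AE17 IPL (median 136) and, among AE17 SC tumors, between 128 and 234 CPM (median 154). Every AB1 IPL tumor was above every AE17 IPL tumor, and 7 of 8 were above every AB1 SC tumor. The share of all genes whose groups separate in this way is not given here, so such counts of tumors are descriptions. By edgeR's test 59.1% of 14886 genes differed between the models in IPL tumors.

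Jun, the main activating member of its family, ranged from 108 to 230.0 CPM in AB1 IPL (median 155), from 127 to 152 in AB1 SC (median 135), from 111 to 183 in AE17 IPL (median 150.0) and, among AE17 SC tumors, between 136 and 229 CPM (median 189). Of the AE17 SC tumors 7 of 8 were above every AB1 SC tumor. Junb, which can oppose Jun on some promoters, ranged from 64.9 to 152 CPM in AB1 IPL (median 122), from 124 to 153 in AB1 SC (median 134), from 125 to 214 in AE17 IPL (median 172) and, among AE17 SC tumors, between 113 and 192 CPM (median 160.0). Of the AE17 IPL tumors 7 of 8 were above every AB1 IPL tumor. Jund, the member expressed most steadily in resting cells, ranged from 74.9 to 198 CPM in AB1 IPL (median 95.8), from 66.6 to 96.4 in AB1 SC (median 82.3), from 54.1 to 76.5 in AE17 IPL (median 62.7) and, among AE17 SC tumors, between 34.2 and 70.6 CPM (median 53.8). At each site 7 of 8 AB1 tumors were above every AE17 tumor.

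Egr1, a zinc finger factor induced by MAP kinases through SRF sites, ranged from 37.5 to 108 CPM in AB1 IPL (median 69.9), from 85.6 to 180.0 in AB1 SC (median 104), from 36.1 to 78.6 in AE17 IPL (median 63.0) and, among AE17 SC tumors, between 50.5 and 95.4 CPM (median 76.5). Of the AB1 IPL tumors 5 of 8 were below every AB1 SC tumor. Atf3, a leucine zipper factor induced by stress that can pair with Jun proteins, ranged from 7.25 to 19.3 CPM in AB1 IPL (median 11), from 12.4 to 28 in AB1 SC (median 17.9), from 34.9 to 63.3 in AE17 IPL (median 42.1) and, among AE17 SC tumors, between 10.7 and 52.7 CPM (median 30.2). The AB1 IPL and AE17 IPL ranges did not overlap, which, as for Fosl2, was not set beside all genes. The AE17 SC tumors ran from below the lowest AB1 SC tumor to above the highest.

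**Figure D1:**
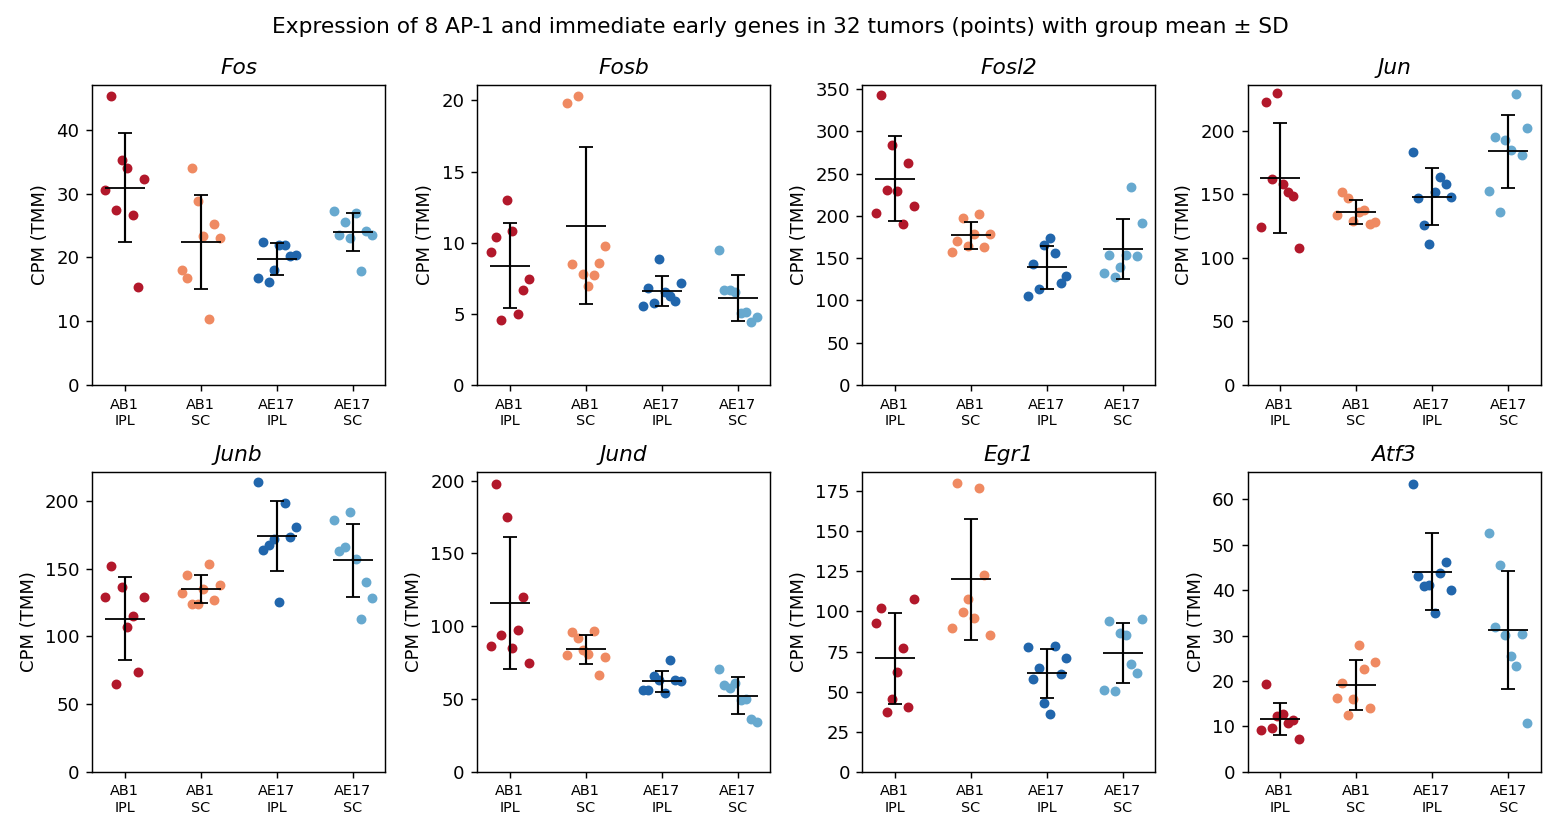
Level of each gene in CPM (vertical axis, linear from 0) in each of 32 tumors (points) of the 4 groups, with the group mean and SD as black bars (n = 8). Atf3 lay between 7.25 and 19.3 CPM in AB1 IPL tumors and between 34.9 and 63.3 CPM in AE17 IPL tumors, while most other ranges overlapped.

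The first comparison asked how these genes differ between the pleural and the subcutaneous site of AB1 tumors. Fosl2 was higher in IPL tumors, at 244 CPM ± 50.2 (SD, n = 8) against 177 ± 16.3 in SC tumors. Egr1 was lower in IPL tumors, at 70.7 CPM ± 28.3 (SD, n = 8) against 120.0 ± 37.9. Atf3 was also lower in IPL tumors, at 11.6 CPM ± 3.59 (SD, n = 8) against 19.1 ± 5.42. In bulk tumors fewer cells of a type and less RNA per cell cannot be told apart.

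By edgeR's quasi-likelihood test with Benjamini-Hochberg adjustment over all genes, 3 of the 8 genes passed, beside 23% of the 14645 genes tested (12.3% higher and 10.7% lower in IPL tumors). The median log2 fold change was -0.01 over the 8 genes and 0 over all genes. Fosl2 rose by 0.45 on the log2 scale (SE 0.11, adjusted p = 0.00511). Egr1 fell by 0.78 (SE 0.24, adjusted p = 0.0248) and Atf3 fell by 0.74 (SE 0.19, adjusted p = 0.0101). The other 5 genes did not pass, with log2 fold changes of 0.45 for Fos (SE 0.22, adjusted p = 0.151), 0.45 for Jund (SE 0.18, adjusted p = 0.0858), 0.24 for Jun, -0.27 for Junb and -0.43 for Fosb.

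None of the 3 calls in AB1 held with the sequencing lane as a covariate, where edgeR gave log2 fold changes of 0.56 for Fosl2 (adjusted p = 0.109), -0.95 for Egr1 (adjusted p = 0.187) and -0.65 for Atf3 (adjusted p = 0.289). Within lane 3, with only 2 SC tumors, the log2 fold changes were 0.52, -0.99 and -0.70 (edgeR adjusted p from 0.317 to 0.345). With scores of muscle, heart, fat and lung markers as covariates they were 0.40, -0.42 and -0.62 (edgeR adjusted p from 0.19 to 0.511). These fits called 386 of 14645, 169 of 15993 and 546 of 14645 genes, in place of 3374 of 14645, so 0 of the 8 is near their background. The direction of each was the same in these fits. Egr1 also missed the threshold with no filter on low counts, at -0.76 (edgeR adjusted p = 0.0571), and without AB1 IPL replicate 4, AB1 SC replicate 2 or AB1 SC replicate 6 (edgeR adjusted p = 0.0634, 0.0553 and 0.0644).

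Other cell types moved with the AB1 site as well. The 7 macrophage markers with a row summed to between 1610 and 3250 CPM in AB1 IPL tumors and between 2290 and 3390 CPM in AB1 SC tumors, and 3 of 7 were lower in IPL tumors. The 8 T cell markers summed to between 32.9 and 108 CPM in AB1 IPL against 123 and 231 CPM in AB1 SC tumors. The 6 fibroblast markers summed to between 13000 and 34800 CPM in AB1 IPL against 11000 and 14400 CPM in AB1 SC tumors, and 5 of 6 were higher in IPL tumors. The 8 skeletal muscle markers summed to between 99.4 and 3760 CPM in AB1 IPL against 51.3 and 331 CPM in AB1 SC tumors. Of the markers tested, 4 of 7 endothelial and 2 of 4 adipocyte markers were higher in IPL tumors and 0 lower. Of 5 B cell markers 3 were higher and 1 lower, of 5 neutrophil markers 2 and 1, and of 3 cardiac muscle markers 2 and 1. No marker of these lists was at 0 in every tumor of an AB1 group. The part of these cell types in the differences of Fosl2, Egr1 and Atf3 was not tested.

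The same question was asked of AE17 tumors. None of the 8 genes passed edgeR's test, beside 5.73% of the 14668 genes tested (2.60% higher and 3.13% lower in IPL tumors). The median log2 fold change was -0.05 over the 8 genes and 0 over all genes. At an unadjusted p under 0.05 there were 3 genes, with edgeR log2 fold changes of -0.28 for Fos (SE 0.09, adjusted p = 0.0801), -0.31 for Jun (SE 0.11, adjusted p = 0.0869) and 0.50 for Atf3 (SE 0.23, adjusted p = 0.179). DESeq2, run without the filter on low counts, called 1 of the 8, Fos, with a log2 fold change of -0.28 (adjusted p = 0.0408).

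With the lane as a covariate the log2 fold changes were -0.20 for Fos, -0.23 for Jun and 0.47 for Atf3 (edgeR adjusted p from 0.431 to 0.452), and within lane 1, with 3 IPL tumors, they were -0.20, -0.23 and 0.46.

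Single tumors decided whether a gene passed in AE17. Without AE17 SC replicate 6, which had the lowest Fos level of its group, Fos had an edgeR adjusted p of 0.0408. Without AE17 SC replicate 1 or 3, which had the 2 lowest Jun levels of their group (153 and 136 CPM), Jun had an edgeR adjusted p of 0.0404 and 0.03. The remaining log2 fold changes between the AE17 sites were 0.25 for Jund, 0.17 for Junb, 0.12 for Fosb, -0.22 for Fosl2 and -0.27 for Egr1. For Fos every AE17 IPL tumor was below the median of the AE17 SC tumors, and the same held for Jun. For Jund and Atf3 every AE17 IPL tumor was above that median.

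The interaction of model and site asked whether the site difference was the same in AB1 and AE17, in 1 fit of all 32 tumors. It passed for 4 of the 8 genes, beside 20.5% of the 15681 genes tested (11.9% with a larger and 8.62% with a smaller value in AB1). The site difference of AB1 minus that of AE17 was 0.69 for Fosl2 (SE 0.17, edgeR adjusted p = 0.00558), 0.74 for Fos (SE 0.24, edgeR adjusted p = 0.03) and 0.57 for Jun (SE 0.17, edgeR adjusted p = 0.0185), all on the log2 scale. For Atf3 it was -1.22 (SE 0.31, edgeR adjusted p = 0.0058). Fosl2, Fos and Jun had IPL over SC values above 0 in AB1 and below 0 in AE17, and Atf3 had the reverse order. Of these site values only those of Fosl2 and Atf3 in AB1 passed by themselves. Opposite directions in the models were therefore not shown for any of the 4 genes. Cell type markers passed the same interaction test. All 8 skeletal muscle and all 6 fibroblast markers had values above 0, and 7 of 8 T cell and 4 of 7 macrophage markers had values below 0. Their part in the differences of Fos, Fosl2, Jun and Atf3 was not tested.

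The other 4 genes did not pass the interaction test, with values of -0.53 for Fosb, -0.42 for Junb, 0.22 for Jund and -0.49 for Egr1. For Egr1, which passed in AB1 only, the 2 site differences were therefore not shown to differ (edgeR adjusted p = 0.279). With the lane as a covariate none of the 4 passed, at 1.03 for Fos, 0.83 for Fosl2, 0.42 for Jun and -1.10 for Atf3 (edgeR adjusted p from 0.108 to 0.445), in a fit that called 117 of 15681 genes in place of 3213. Without AB1 IPL replicate 2 the value of Fos was 0.64 (edgeR adjusted p = 0.0532).

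**Figure D2:**
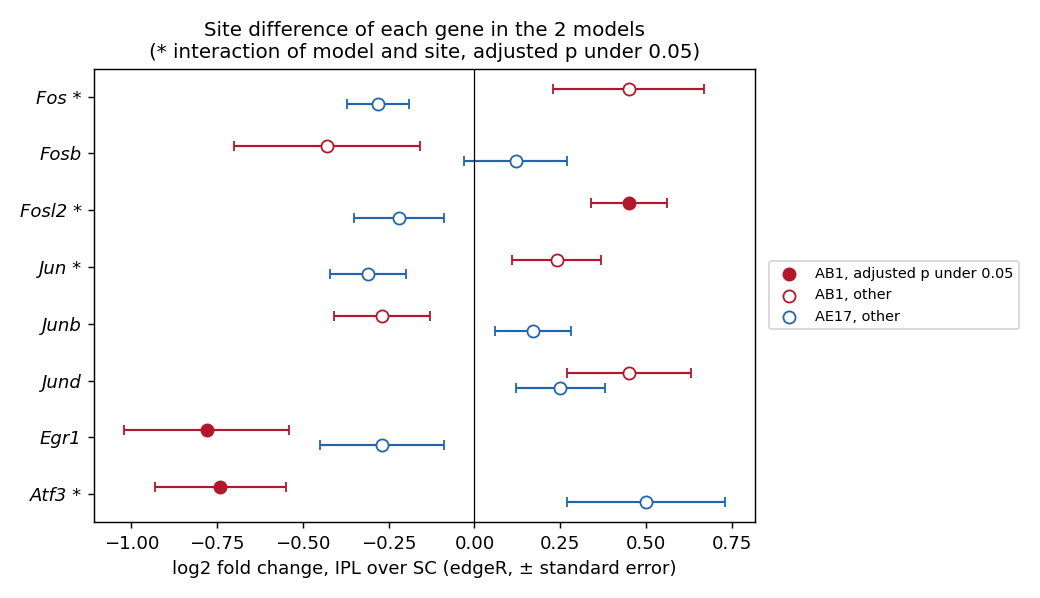
Log2 fold change of IPL over SC tumors (horizontal axis, bars are standard errors) for each gene in AB1 (red) and AE17 (blue), with filled points for an adjusted p under 0.05. Fosl2, Egr1 and Atf3 are filled in AB1 and none in AE17, and asterisks mark Fos, Fosl2, Jun and Atf3, whose site differences differed between the models.

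AB1 and AE17 tumors were then compared at each site. Cell line, mouse strain, number of cells and lane differ together here and cannot be told apart. Of the 8 genes 5 passed edgeR's test in SC tumors, beside 63.8% of 14718 genes (31.5% higher and 32.2% lower in AB1). In IPL tumors 5 of 8 passed, beside 59.1% of 14886 genes (30.5% higher and 28.6% lower in AB1). These shares are near the background and are not a result about the 8 genes.

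Jund was higher in AB1 tumors at both sites, by a log2 fold change of 0.68 in SC tumors (SE 0.13, edgeR adjusted p = 0.000229) and 0.93 in IPL tumors (SE 0.18, edgeR adjusted p = 0.00035). Atf3 was lower in AB1 tumors at both sites, with log2 fold changes of -0.72 in SC tumors (SE 0.25, edgeR adjusted p = 0.0198) and -1.91 in IPL tumors (SE 0.17, edgeR adjusted p = 2.48e-08). In IPL tumors 6 of 8 T cell and 4 of 7 macrophage markers were also lower in AB1, while in SC tumors 2 of each list were higher in AB1 and none lower. The part of these cells in the level of Atf3 was not tested. In SC tumors Fosb (0.86) and Egr1 (0.69) were also higher in AB1 and Jun (-0.44) was lower. In IPL tumors Fos (0.66) and Fosl2 (0.84) were also higher in AB1 and Junb (-0.60) was lower. Markers of other tissues differed between the models too, with 7 of 8 skeletal muscle markers higher in AB1 IPL tumors, and 6 of 7 endothelial and 4 of 6 fibroblast markers lower in AB1 SC tumors. Their part in the differences of these genes was not tested.

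With the lane as a covariate in a fit of all 32 tumors, Jund remained past the threshold at both sites, with log2 fold changes of 0.85 in SC and 0.90 in IPL tumors (edgeR adjusted p = 0.0286 and 0.0443). Atf3 remained past it in IPL tumors at -1.83 (edgeR adjusted p = 0.00156) and missed it in SC tumors at -0.73 (edgeR adjusted p = 0.18). Fos and Fosl2 remained past it in IPL tumors, at 1.16 and 0.94. Fosb, Egr1 and Jun in SC tumors and Junb in IPL tumors did not, at 0.68, 0.96, -0.33 and -0.63 (edgeR adjusted p from 0.0606 to 0.284). That fit called 5268 of 15681 genes in SC and 5008 in IPL tumors. With a correction for GC content in place of the lane, Jund was 0.65 in SC and 0.69 in IPL tumors (edgeR adjusted p = 0.000138 and 0.00046).

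Within the Fos family, of which Fos, Fosb and Fosl2 were measured, Fosl2 made up the largest share of CPM per kilobase in every tumor. Its mean share was 63.7% ± 6.25 (SD, n = 8) in AB1 IPL, 62.3% ± 7.93 in AB1 SC, 60.0% ± 3.09 in AE17 IPL and 59.3% ± 7.31 in AE17 SC tumors. The Fosl2 shares of the 4 groups overlapped. Fos made up 31.7% to 37.1% and Fosb 3.35% to 6.01% in the means of the 4 groups. Shares add to a whole, so a larger share of one gene lowers the others.

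In the Jun family Jund made up 40.2% ± 5.68 (SD, n = 8) of its CPM per kilobase in AB1 IPL, 33.2% ± 1.91 in AB1 SC, 23.5% ± 2.50 in AE17 IPL and 19.8% ± 3.43 in AE17 SC tumors. The lowest Jund share among the AB1 tumors, 29.6%, was above the highest among the AE17 tumors, 26.1%. Junb made up 29.6% ± 7.64 and 38.6% ± 2.07 in AB1 IPL and SC tumors, and 47.3% ± 3.20 and 43.0% ± 4.98 in AE17 IPL and SC tumors. Jun made up 28.2% to 30.3% in 3 groups and 37.2% ± 7.16 in AE17 SC tumors. The group means of the summed level of the family lay between 152 and 170.0 CPM per kilobase. These shares are a description, and no test was made of them.

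**Figure D3:**
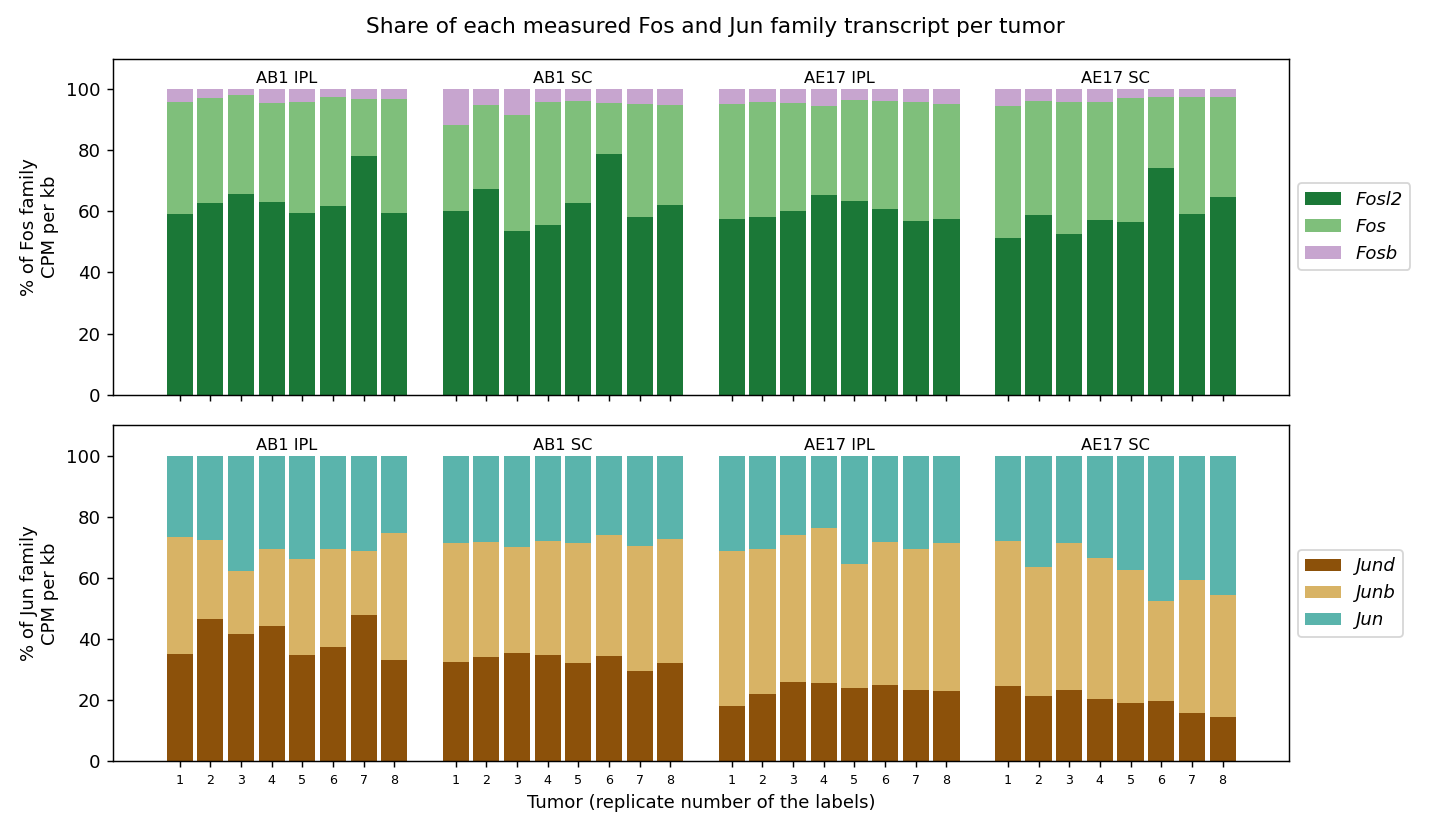
Share of each measured Fos family transcript (top) and Jun family transcript (bottom) in the CPM per kilobase of its family (vertical axis, percent) for each of 32 tumors. Jund took at least 29.6% of the Jun family in every AB1 tumor and at most 26.1% in every AE17 tumor.

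Tumors of 1 group differed in several of these genes at once. AB1 IPL replicate 2 had the highest level of its group for Fos (45.3 CPM), Fosl2 (343 CPM), Junb (152 CPM), Jund (198 CPM) and Atf3 (19.3 CPM). AB1 IPL replicate 4 had the highest Jun (230.0 CPM) and Fosb (13 CPM). Replicate 2 also had the highest sums of its group for fibroblast (34800 CPM), macrophage (3250 CPM), mesothelial and mesothelioma (438 CPM), endothelial (221 CPM), B cell (97.2 CPM) and keratinocyte markers (7.39 CPM). It had the lowest of skeletal muscle markers (99.4 CPM), while replicate 4 had the highest of skeletal muscle (3760 CPM) and T cell markers (108 CPM). The part of these cell types in the levels of the 2 tumors was not tested.

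In AE17 SC tumors, replicate 8 had the lowest Jund (34.2 CPM) and Atf3 (10.7 CPM), and replicate 6 the lowest Junb (113 CPM) and Fos (17.9 CPM). Replicate 6 also had the highest Fosl2 (234 CPM) and Jun (229 CPM), and the highest sums of fibroblast (24400 CPM), skeletal muscle (991 CPM) and keratinocyte markers (33.7 CPM). Replicate 8 had the lowest sums of macrophage markers (1940 CPM) and T cell markers (23.6 CPM) of its group. Replicate 1, with the highest Atf3 (52.7 CPM) and Jund (70.6 CPM), had the highest sum of T cell markers (232 CPM). Among AE17 IPL tumors, replicate 5 had the lowest Junb (125 CPM), Jund (54.1 CPM), Egr1 (36.1 CPM) and Atf3 (34.9 CPM). It also had the highest Fosl2 (174 CPM) and the highest sums of adipocyte (1010 CPM) and cardiac muscle markers (241 CPM) of its group. The part of these cell types in the levels of these tumors was not tested.

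**Figure D4:**
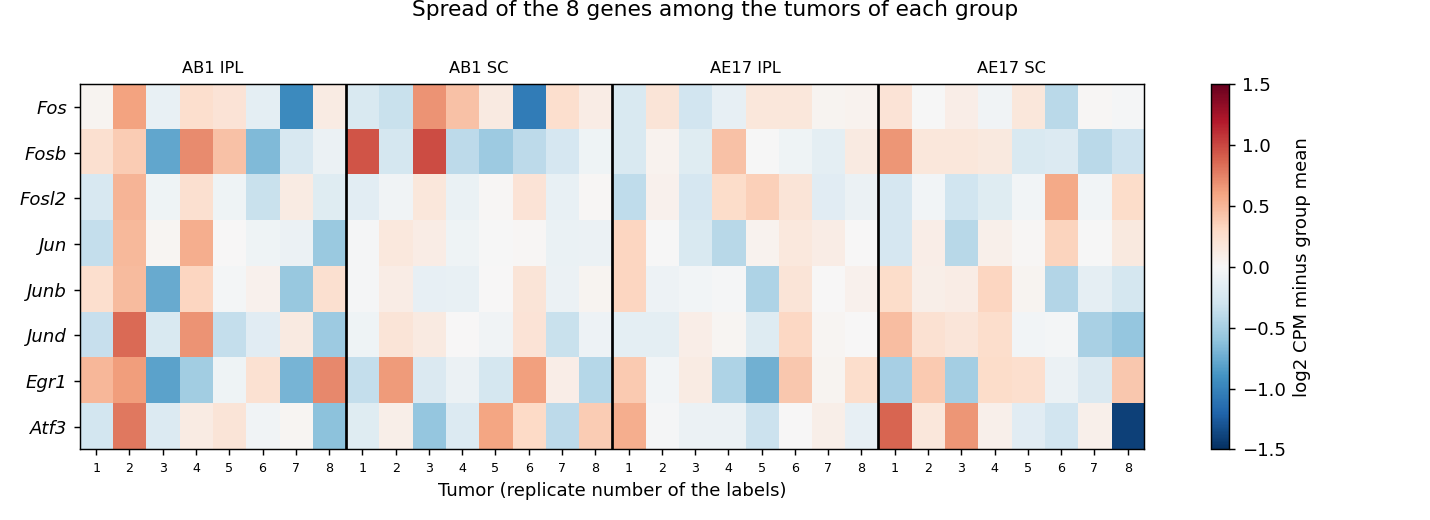
Log2 CPM of each gene minus its group mean (color) in each of 32 tumors (columns, 8 per group). AB1 IPL replicate 2 is red in all 8 genes, and AE17 SC replicate 8 is darkest blue for Atf3, the lowest Atf3 level of that group at 10.7 CPM.

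Correlations between the genes were computed within each group of 8 tumors, for 112 pairs of gene and gene in all. After Benjamini-Hochberg adjustment none had a p under 0.05, and 24 had an unadjusted p under 0.05 (exact two-sided permutation test of Pearson's r). Of these 24, 8 were in AB1 IPL, 2 in AB1 SC, 3 in AE17 IPL and 11 in AE17 SC tumors. The median r was 0.42 in AB1 IPL, where 24 of 28 pairs were positive, 0.17 in AB1 SC, -0.03 in AE17 IPL and -0.17 in AE17 SC tumors.

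Only Junb with Jund (r from 0.32 to 0.72), Junb with Atf3 (0.26 to 0.80) and Fos with Fosb (0.18 to 0.54) had a positive r in all 4 groups. Without the 2 tumors farthest from the median of Fos, r of Fos and Fosb was negative in 3 of the 4 groups. The lowest adjusted p of r, 0.0646 by the exact permutation test, was shared by 4 pairs. These were Fos and Junb in AB1 SC tumors (r = -0.91, rho = -0.93), Fosb and Jund in AE17 SC (r = 0.89, rho = 0.90), Fosl2 and Junb in AE17 SC (r = -0.90, rho = -0.83) and Junb and Egr1 in AE17 IPL tumors (r = 0.87, rho = 0.86). Without the 2 tumors farthest from the median of the first gene, r was -0.77, 0.85, -0.60 and 0.63. In AB1 IPL tumors Jun and Jund had r = 0.90 and rho = 0.69 (exact permutation p = 0.00404 and 0.0694, adjusted p = 0.0755 and 0.353), and without the 2 tumors farthest from the median of Jun r was 0.59.

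Genes with the most similar pattern were ranked over 15681 genes by the Pearson correlation of log2 CPM after subtraction of group means, over the 32 tumors. The tumors share libraries and depth across genes, so these values are descriptions. Atf3 was most like Tmem106a (r = 0.94), Itgb2, the beta chain of leukocyte integrins (0.91), and Bcl2a1b (0.91). Fosl2 was most like Fzd7, a Wnt receptor (0.88), Dpysl3 (0.85) and Cd34, a marker of endothelial and stromal precursor cells (0.84). Jund was most like Rnf145 (0.87), Wbp1l (0.85) and Slc38a10 (0.84).

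Junb was most like Gjb5 (0.81), Tgfb1, which encodes a cytokine of the TGF-beta family (0.80), and Furin, a protease that cleaves its precursor (0.76). Fos was most like Cd93 (0.75), Pde8a (0.67) and Clec4d (0.67). Egr1 was most like Gm8062 (0.78), Pop4 (0.72) and Akr1b8 (0.71), Jun like BC029722 (0.76), Tpbg (0.75) and Surf4 (0.74), and Fosb like Midn (0.74), Gdpgp1 (0.70) and Homer3 (0.66). Within single groups of 8 tumors these values varied. The lowest r in any group was 0.86 for Tmem106a with Atf3, 0.75 for Fzd7 with Fosl2, 0.71 for Tgfb1 with Junb and 0.65 for Rnf145 with Jund. It was 0.45 for Itgb2 with Atf3 and for Furin with Junb, 0.44 for Gjb5 with Junb, 0.20 for Tpbg with Jun, 0 for Cd93 with Fos and -0.04 for Clec4d with Fos. Among the 8 genes themselves the same measure ran from -0.26 for Fosl2 and Junb to 0.59 for Jund and Atf3. It was 0.57 for Junb and Egr1, 0.49 for Fosl2 and Jun and 0.02 for Fos and Fosl2.

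Other genes of the pathway were read from lists chosen by function. Among 20 other immediate early genes tested, 1 was higher and 5 were lower in AB1 IPL than AB1 SC tumors, beside 12.3% and 10.7% of all genes, so the total was near the background. Egr2, a zinc finger relative of Egr1, ranged from 4.56 to 12.6 CPM in AB1 IPL (median 6.11) and from 11.3 to 33.6 CPM in AB1 SC tumors (median 19.8). The 2 ranges overlapped between 11.3 and 12.6 CPM. Its log2 fold change was -1.66 (SE 0.25, edgeR adjusted p = 0.00021), and it passed with the lane as a covariate at -1.58 (edgeR adjusted p = 0.0313), within lane 3 at -1.62 (edgeR adjusted p = 0.0435) and with the tissue scores at -1.40 (edgeR adjusted p = 0.047). Egr2 also fell in AE17 IPL tumors, by 0.51 (SE 0.09, edgeR adjusted p = 0.00761), and the interaction was -1.13 (edgeR adjusted p = 0.00411).

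Nr4a3, an orphan nuclear receptor induced by many signals, ranged from 3.81 to 7.55 CPM in AB1 IPL and from 9.18 to 17.4 CPM in AB1 SC tumors, without overlap. How many of all genes had no overlap there is not given here. Nr4a3 fell by 1.06 on the log2 scale (SE 0.15, edgeR adjusted p = 0.00013), and passed with the lane at -0.94 (edgeR adjusted p = 0.0365) but not within lane 3 at -0.99 (edgeR adjusted p = 0.0656). Ptgs2, the inducible cyclooxygenase, fell by 0.81 in AB1 IPL tumors (SE 0.25, edgeR adjusted p = 0.0276). In AE17 IPL tumors 0 of the 20 were higher and 2 were lower, beside 2.60% and 3.13% of all genes. These were Egr2 and Klf4, a zinc finger factor that fell by 0.50 (SE 0.14, edgeR adjusted p = 0.0492). The median log2 fold change of the 20 was -0.21 between the AB1 sites and 0.21 between the AE17 sites, against 0 over all genes in each.

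**Figure D5:**
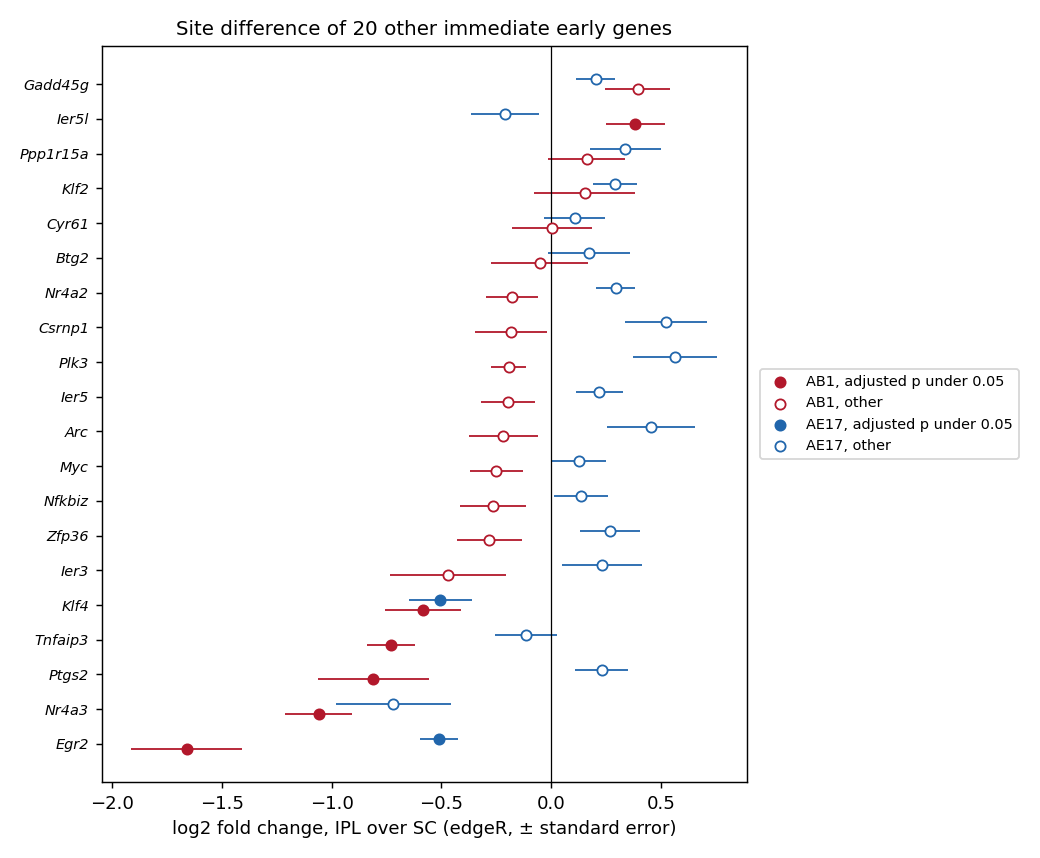
Log2 fold change of IPL over SC tumors (horizontal axis, bars are standard errors) for 20 other immediate early genes in AB1 (red) and AE17 (blue), ordered by the AB1 value, with filled points for an adjusted p under 0.05. Egr2 is the lowest in AB1 at -1.66 and is filled in both models.

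Between the models 3 of the 20 genes were higher and 13 lower in AB1 SC tumors, beside 31.5% and 32.2% of all genes. In AB1 IPL tumors 2 were higher and 14 lower, beside 30.5% and 28.6% of all genes. Gadd45g, a growth arrest gene, had log2 fold changes of -2.18 in SC and -1.94 in IPL tumors (edgeR adjusted p = 1.19e-10 and 2.79e-10). Myc, a growth regulator, ranged from 53.9 to 105 CPM in AB1 IPL tumors and from 197 to 333 CPM in AE17 IPL tumors, without overlap. The share of all genes without overlap is not given here. The median log2 fold change of the 20 was -0.60 in SC and -0.98 in IPL tumors, against 0 and 0.02 over all genes.

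Of 14 other leucine zipper partners, 5 were lower and 0 higher in AB1 IPL than AB1 SC tumors, beside 10.7% and 12.3% of all genes. The 3 Batf genes, whose proteins pair with Jun proteins and are known from lymphocytes and dendritic cells, were among them, with log2 fold changes of -1.33 for Batf3 (SE 0.30, edgeR adjusted p = 0.00413), -0.87 for Batf (SE 0.18, edgeR adjusted p = 0.00204) and -0.84 for Batf2 (SE 0.20, edgeR adjusted p = 0.00633). All 3 passed the interaction test as well, at -1.36, -0.95 and -1.53. T cell markers moved the same way between the AB1 sites, as given above, and the part of T cells in these differences was not tested. In AE17 IPL tumors 2 of the 14 were higher, beside 2.60% of all genes, Cebpb by 0.60 and Mafk by 0.57 (edgeR adjusted p = 0.0228 and 0.0338).

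Of 16 MAP kinases and SRF factors upstream, 1 was higher (Elk3, 0.17) and 1 lower (Map2k1, -0.30) in AB1 IPL tumors, beside 23% of all genes called, and none passed between the AE17 sites, beside 5.73%. Among 13 MAP kinase phosphatases and feedback inhibitors, 4 were higher and 3 lower in AB1 IPL tumors and none passed in AE17, beside the same 23% and 5.73% of all genes. Dusp8, a phosphatase of stress-activated kinases, had a log2 fold change of 1.62 (SE 0.28, edgeR adjusted p = 0.000524), Dusp1 of 0.99 (SE 0.27, edgeR adjusted p = 0.0121) and Spry1, an inhibitor of receptor signaling, of 0.91 (SE 0.26, edgeR adjusted p = 0.0159). Dusp2, a phosphatase known from immune cells, had -1.04 (SE 0.21, edgeR adjusted p = 0.00184).

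Of 15 known AP-1 target genes, 1 was higher and 4 were lower in AB1 IPL tumors, beside 23% of all genes called in either direction. In AE17 IPL tumors 0 were higher and 2 lower, beside 5.73% of all genes. Mmp3, stromelysin 1, fell in the IPL tumors of both models, by 2.64 in AB1 (SE 0.47, edgeR adjusted p = 0.000825) and by 2.35 in AE17 (SE 0.30, edgeR adjusted p = 0.00258). It ranged from 2.06 to 39.2 CPM in AB1 IPL and 39.1 to 119 CPM in AB1 SC tumors, and from 20.0 to 38.8 CPM in AE17 IPL and 38.5 to 259 CPM in AE17 SC tumors. In both models the IPL and SC ranges overlapped at their ends. Mmp10, stromelysin 2, fell by 2.41 in AB1 IPL tumors (SE 0.38, edgeR adjusted p = 0.000283), and Mmp13, a collagenase, rose by 3.55 (SE 0.87, edgeR adjusted p = 0.00753).

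The Mmp13 levels of AB1 IPL tumors ran from 1.57 to 213 CPM, against 2.71 to 7.46 CPM in AB1 SC tumors, so that the 2 groups overlapped. With the tissue scores as covariates its log2 fold change was -1.18 (edgeR adjusted p = 0.657). Of 9 heat shock chaperones, which respond to proteotoxic stress, 3 were higher in AB1 IPL tumors, beside 12.3% of all genes, and none passed in AE17, where 5.73% of all genes did. Hspb1, also abundant in muscle, had the largest difference, from 13.6 to 70.7 CPM in AB1 IPL against 0.965 to 13.6 CPM in AB1 SC tumors (log2 fold change 2.62, SE 0.53, edgeR adjusted p = 0.0019). Of the genes of these lists named above as past the threshold between the AB1 sites, only Egr2, Nr4a3, Mmp3 and Mmp10 passed with the lane as a covariate, where 386 of 14645 genes did. Between the AE17 sites that fit called 1 of 14668 genes, so it says little of the genes named there.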

How the data were processed

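RNA-seq libraries (polyA RNA, 50 bp single-end reads) of 32 tumors were used. The authors mapped the reads with HISAT2 2.0.4 and deposited raw counts per gene (whole numbers, not scaled) made with SummerizeOverlaps. The methods name the genome as mm11, and the annotation release and the strand setting of the counting are not given in the sources used here, so reads of overlapping antisense genes cannot be told apart. Sample titles gave the group and replicate number, and column headers the lane. Of 39676 gene identifiers 39495 matched GENCODE M21 (GRCm38), which gave exon lengths and GC content. A symbol with 2 rows was read from the row with more counts. Total counts ranged from 15432258 to 20649645. No pair of libraries in a group was a copy, since the 112 pairs differed by 5.92 to 148 times their counting error.

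The genes described, the pathway lists and the marker lists were chosen with earlier results of these data known, so their counts are descriptions. Differences were tested in R 4.3.3 with edgeR 4.0.16 (filterByExpr, TMM factors, robust quasi-likelihood fits, two-sided F test, Benjamini-Hochberg adjustment over all genes, threshold 0.05). Site was compared within each model, model within each site, and the interaction in 1 fit of all 32 tumors. All adjusted p-values are edgeR's unless DESeq2 (1.42.0) is named. Log2 CPM used a prior count of 2. The procedure was tested on simulated data. Correlations used exact permutation tests within groups of 8 (SciPy 1.17.1).

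Alternatives were DESeq2, its size factors, no filter, the replicate number as a block, the lane, 1 lane alone, tissue scores, 1 fit of all 32 tumors, the length of the longest transcript and leaving out each tumor. A GC correction (40 bins) and the lane in the fit of all 32 tumors were added after seeing the data. Named genes are all 8 members with a row, up to 3 per direction with the largest change past the threshold in each list, the 3 genes most like each member, and up to 3 per marker list. Upk3b and Lrrn4 were singled out after their values were seen. Plots were drawn with matplotlib 3.10.9.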

Additional observations from a re-analysis of the deposited data

Results flagged for a closer look

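For 4 genes the site difference differed between the models by the interaction test. The site difference of AB1 minus that of AE17 was 0.74 for Fos, 0.69 for Fosl2, 0.57 for Jun and -1.22 for Atf3 on the log2 scale, and none of the 4 passed with the lane as a covariate. In 2 of the 32 tests of 8 genes in 4 groups a single tumor lay far from the others of its group, where chance flags about 1 in 20. Fos was lowest in AE17 SC replicate 6, at 17.9 CPM, and Atf3 was highest in AE17 IPL replicate 1, at 63.3 CPM.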

How the results depend on the processing

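Between the AB1 sites the 3 of 8 genes called became 5 with all 32 tumors in 1 fit (Fos and Jund added), and 0 with the lane as a covariate, within 1 lane and with tissue scores, where 386, 169 and 546 genes were called of all tested in place of 3374. Between the AE17 sites DESeq2, which was run without the filter on low counts, called 1 of the 8 and 1768 of 28453 genes in place of 840 of 14668, edgeR with no filter called 550 of 28453, 1 fit of all 32 tumors 1324, the lane 1, 1 lane alone 14 and tissue scores 1. With the lane in the fit of all 32 tumors, the models differed in 1 of the 8 and 5268 genes in SC tumors (main 9387), in 5008 genes in IPL tumors (main 8793), and the interaction was called for 0 of the 8 and 117 genes (main 3213). That fit turned the SC difference of Fos between the models to 0.13 and the IPL difference of Fosb to -0.15, neither past the threshold, and tissue scores turned Mmp13 between the AB1 sites to -1.18. The lane covariate leaves few tumors to tell site from lane, and the cause of these changes was not tested. The GC correction added Junb between the AB1 sites (-0.45), between the models in SC tumors (-0.24) and in the interaction (-0.58). It lowered Jund between the AB1 sites to 0.26 and between the models in IPL tumors to 0.69. Leaving out each tumor gave 2 to 4 of the 8 genes and 2877 to 3651 genes between the AB1 sites, 0 to 1 and 308 to 2066 between the AE17 sites, 5 to 7 and 9084 to 9663 between the models in SC, 5 to 6 and 8426 to 9208 in IPL tumors, and 3 to 4 and 2721 to 3665 in the interaction. Between the AE17 sites the count rose most without AE17 SC replicate 1 (2066) and fell most without AE17 IPL replicate 4 (308). The SC difference of Fos between the models ran from -0.22 without AB1 SC replicate 3 to 0 without AB1 SC replicate 6. Jund between the AB1 sites passed without AB1 IPL replicate 8 (0.52). Between the models Fosl2 in SC tumors passed without AE17 SC replicate 6 (0.22), Junb in SC tumors without AB1 SC replicate 6 or AE17 SC replicate 6, 7 or 8 (-0.27 to -0.24), and Fosb in IPL tumors without AB1 IPL replicate 3 (0.46).

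The replicate number as a block gave 3 of the 8 genes and 2263 genes between the AB1 sites, 0 and 661 between the AE17 sites, 4 and 8882 between the models in SC, 5 and 8264 in IPL tumors, and 3 and 2398 in the interaction. Under this block Atf3 between the models in SC tumors was -0.65 and Fos in the interaction 0.76, both past the threshold no longer. Tumors with the same number had mean correlations of their deviations of -0.12 between the AB1 sites, 0.07 between the AE17 sites, and -0.11 and -0.05 between the models in SC and IPL tumors. In these comparisons 0, 5, 2 and 1 of 8 pairs were over 0.1, the highest being 0.27 between the AE17 sites. No label ties tumors by number and no comparison had every pair over 0.1, so the numbers were not treated as pairs. With the longest transcript as length, the family shares in AE17 IPL tumors were 29.2% for Fos, 5.44% for Fosb and 65.3% for Fosl2, Junb and Jund were 53.3% and 20.8% there, Junb was 48.9% in AE17 SC tumors, and Jun, Junb and Jund were 25.5%, 44.5% and 30% in AB1 SC tumors.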
